A study of Mus musculus with 9 samples.

Results

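The cytosolic ribosomal protein genes are the genes whose products, with ribosomal RNA, build the 40S and 60S subunits of the ribosome that translates nuclear messenger RNA. They were taken by symbol: every row whose name begins with Rpl or Rps and a digit, plus Rplp0, Rplp1, Rplp2 and Rpsa. Names of S6 kinases, of an Rps19-binding protein and of rows marked as pseudogenes, 12 in all, were left out. This gave 84 genes among the 20325 rows of each table, 52 of the large subunit and 32 of the small subunit. The rule used names and no measured value, but the family was chosen with earlier results of these data known. Of the 84 genes, 80 passed the filter on low counts and were tested (48 large-subunit and 32 small-subunit genes). Of the 4 that did not pass, Rpl10l, Rpl39l and Rpl3l are described below.

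Polyadenylated RNA of liver from male C57BL/6J mice was sequenced in 3 groups of 3 libraries, and all mice ate an irradiated and autoclaved chow. The GF group was germ-free throughout. The GF+SCFA group was also germ-free and had acetate (67.5 mM), propionate (25.9 mM) and butyrate (40 mM), short-chain fatty acids made by gut bacteria, in its drinking water. The ConvD group consisted of germ-free mice that received a single oral gavage of cecal contents from conventionally raised donors and then lived in sealed filter-top cages for 4 weeks. The design text gives an age of 14 weeks, whereas the growth protocol puts gavage at 15 weeks and dissection at 19 weeks. Mice shared cages by colonisation status, so cage and group cannot be told apart. The labels name no animal for a library, so p-values measure the spread between these libraries. The libraries held 18193071 to 21627696 expected counts each, and their 10 largest genes took 20.9% to 23.3% of them. Hepatocyte markers summed to between 108990 and 135490 CPM (counts scaled to a common library size) in every library. In whole liver, fewer cells of a type and less RNA per cell cannot be told apart.

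Ribosomal proteins are needed in near-equal numbers, since each subunit holds most of them once. Cells balance their supply largely at translation: most of their messenger RNAs start with a cytosine followed by a run of pyrimidines, the 5′ terminal oligopyrimidine (TOP) motif, through which the kinase mTORC1 controls their translation when nutrients and growth signals change. Unassembled ribosomal proteins are degraded by the proteasome, and Rpl5 and Rpl11 in surplus bind Mdm2 and stabilise p53. Messenger RNA levels, which are what was measured here, therefore show only one layer of ribosome supply.

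The start regions of the genes are shown first, because the TOP run is the sequence feature that defines the family's control. In RefSeq start sites on GRCm38.p6 (the deposited counts used mm9), 63 of the 84 genes were found, with 75 annotated starts. A C followed by 4 pyrimidines lay exactly at 13 of the 75 starts (17.3%), against 2.51% of all 32851 starts in the table. Within 10 bases before to 15 bases after the start, the same run was found at 54.7% of the starts of these genes and at 30.7% of all starts. Start sites were not measured here, so these are shares of annotated starts, not of messenger RNAs that carry a TOP motif. The first 4 of the windows below have the run at their annotated start and were chosen after the sequences were seen. The other 4 belong to the genes with an unadjusted p under 0.05 in the comparison of GF+SCFA with GF. Each window holds 45 bases before the start and 15 from it, and capitals mark pyrimidine runs of 5 or more that open with C between 10 bases before and 15 bases after the start.

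Rps6, chr4:86857353-86857412, minus strand: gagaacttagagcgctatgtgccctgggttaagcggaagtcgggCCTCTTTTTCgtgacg

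Rpl35, chr2:39005117-39005176, minus strand: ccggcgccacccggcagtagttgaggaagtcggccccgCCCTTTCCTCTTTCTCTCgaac

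Rps10, chr17:27635230-27635289, minus strand: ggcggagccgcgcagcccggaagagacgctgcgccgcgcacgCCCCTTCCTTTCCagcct

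Rps18, chr17:33955651-33955710, minus strand: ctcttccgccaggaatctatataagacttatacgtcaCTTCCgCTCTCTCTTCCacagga

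Rps2, chr17:24720018-24720077, plus strand: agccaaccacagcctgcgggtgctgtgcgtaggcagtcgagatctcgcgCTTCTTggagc

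Rpl36al, chr12:69184053-69184112, minus strand: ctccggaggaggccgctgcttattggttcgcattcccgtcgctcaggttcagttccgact

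Rpl41, chr10:128549154-128549213, minus strand: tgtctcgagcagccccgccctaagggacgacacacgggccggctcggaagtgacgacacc

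Rpl7l1, chr17:46782642-46782701, minus strand: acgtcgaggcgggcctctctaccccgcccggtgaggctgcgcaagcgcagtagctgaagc

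The first 4 windows share a pyrimidine tract across the start, while Rps2 has a short tract inside the transcript. In Rpl36al, Rpl41 and Rpl7l1 no such tract lay between 10 bases before and 15 bases after the start, which says only that the letters are not in that stretch. The core CTTTCC lay on the transcribed strand within 10 bases before to 15 after 13.3% of the starts of ribosomal protein genes and 1.04% of all starts. In the full 300 bases (250 before and 50 after the start, both strands), CCGGAAG, a motif of the ETS factor family to which GABPA belongs, was present at 34.7% of the starts against 8.86% of all. The YY1 motif AAGATGGC was present at 10.7% against 2.75%. Matches of these 3 motifs, all on both strands, overlapped one another in 1 promoter. TATAAA between 45 and 15 bases before the start was found at 1.33% of these starts and 2.14% of all. Several starts of one gene share sequence, so the starts are not independent.

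The family was abundant and even. Ribosomal protein rows held 1.26% to 1.43% of the expected counts of a library, and 2.97% to 3.46% of its summed TPM, the transcript level scaled for length and depth. The median level over the 80 tested genes was 376 TPM, with 387 TPM for large-subunit and 374 TPM for small-subunit genes. In 64 of the 80 the mean TPM over the 9 libraries lay between 200 and 600. The highest level per length belonged to Rplp1, a protein of the acidic stalk that recruits elongation factors, at 1108 TPM. Rpl10, which joins the large subunit late and completes the site where tRNAs are held, followed with 932 TPM. Rps2, which lies at the entrance of the messenger RNA channel, had 910 TPM.

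The low end held genes of several kinds. Rps15a had 27.4 TPM, but its row was computed with a transcript length of 5134 bases where the median of the 80 genes was 681.5 bases. Its 90.6 ± 0.81 CPM in GF livers (SD, n = 3) lay close to the 92.3 ± 1.51 CPM of Rpl35, which has 452 bases. Rpl7l1, a paralogue of Rpl7 found in pre-ribosomes, had 33 TPM. Rps23, a protein of the decoding site, had 46.4 TPM, and shares reads with a near-identical row.

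**Figure D1:**
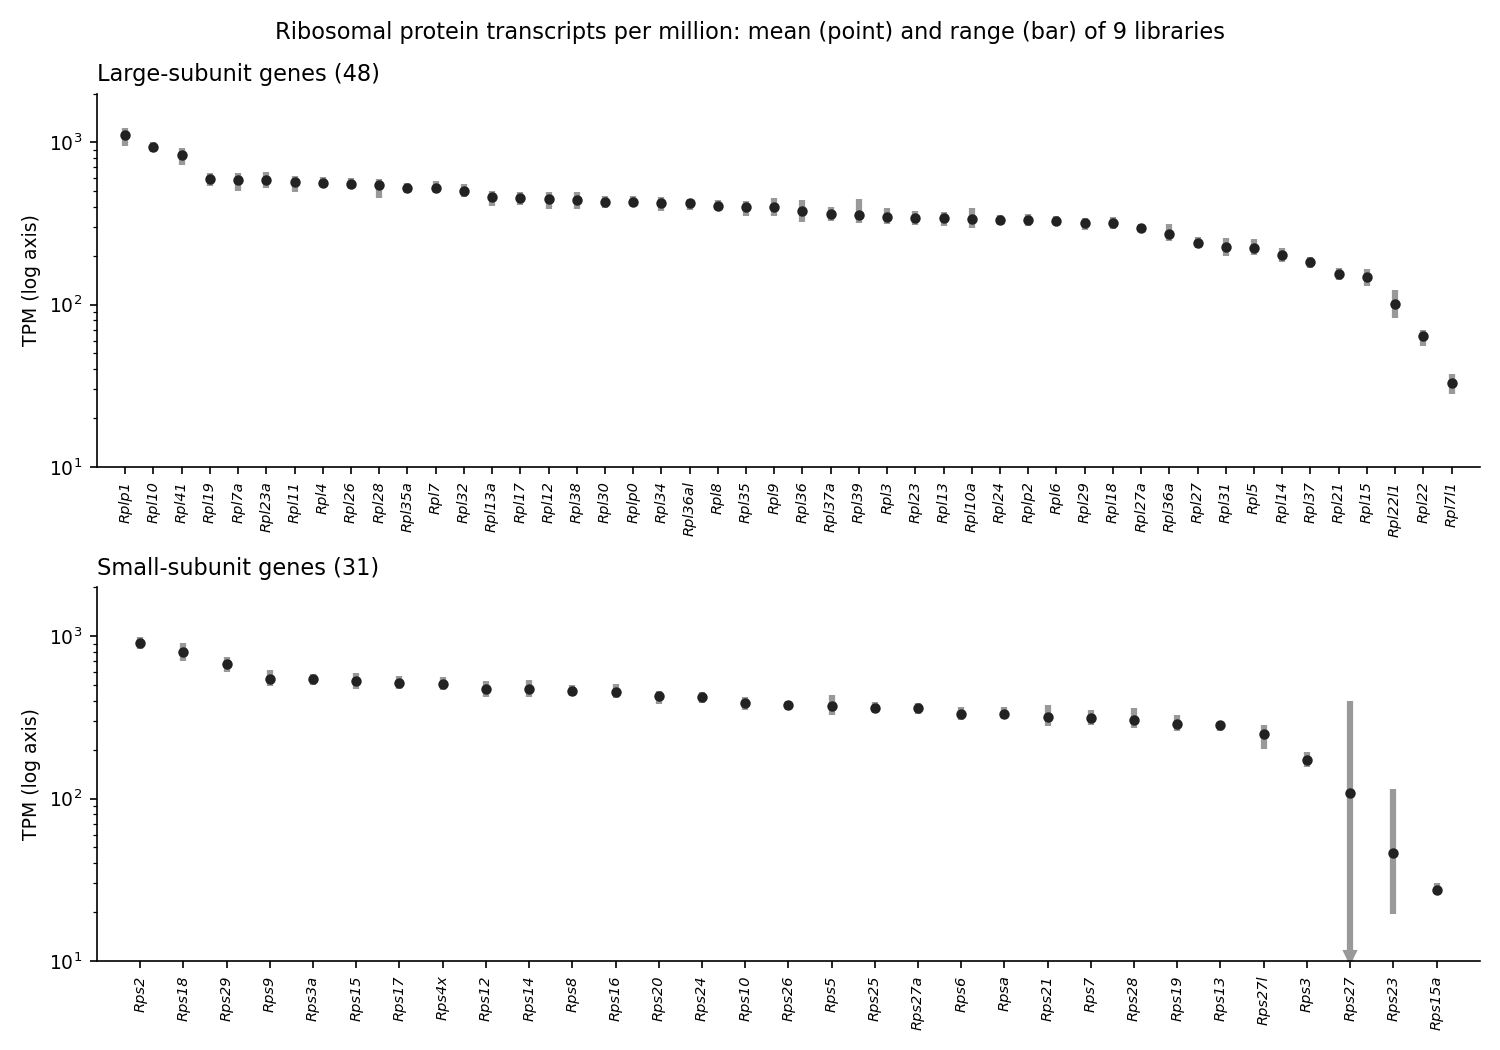
Mean (point) and lowest to highest library (bar) of the deposited TPM over 9 libraries, on a log axis, for 48 large-subunit and 31 small-subunit genes. Most points form a plateau between 200 and 600 TPM with short bars, while Rps27 (down to 0 TPM, arrow) and Rps23 have long ones.

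For Rps27 and Rps23, reads were divided between the gene and a near-identical row outside the family. The 84 genes were matched to GENCODE M21 transcripts (GRCm38), and 11 of them shared at least 10% of their 31-base words with a row that is no member. In 8 of these 11, such rows had at most 12.1 CPM in any library (Gm9104, beside Rpl21 with a mean of 179 CPM). For Rps27 and Rps23 the other row carried most of the counts.

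Rps27 encodes a zinc-finger protein of the small subunit and lies at chr3:90212522-90213651. Gm9846, named Rps27rt in GENCODE, is a protein-coding gene at chr9:114982366-114982739. Over the 255 coding bases the 2 rows do not differ at any base, which is shown here because it sets what the counts can tell. Capitals would mark a difference, and there are none.

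Rps27: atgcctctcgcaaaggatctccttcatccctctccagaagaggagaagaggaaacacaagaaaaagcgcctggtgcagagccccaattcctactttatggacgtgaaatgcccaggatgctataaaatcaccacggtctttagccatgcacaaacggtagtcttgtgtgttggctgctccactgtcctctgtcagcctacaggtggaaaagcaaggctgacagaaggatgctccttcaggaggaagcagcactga

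Gm9846: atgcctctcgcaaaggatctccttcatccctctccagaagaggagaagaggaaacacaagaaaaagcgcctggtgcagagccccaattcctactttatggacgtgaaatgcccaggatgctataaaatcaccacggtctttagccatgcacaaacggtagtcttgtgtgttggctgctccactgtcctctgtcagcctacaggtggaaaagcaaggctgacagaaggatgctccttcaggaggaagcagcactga

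Rps27 was listed at 13.6, 0 and 12.3 CPM in the GF libraries, at 14.9, 0 and 28.7 CPM in the GF+SCFA libraries and at 16.5, 12.8 and 69.9 CPM in the ConvD libraries. Gm9846 had 106, 113 and 118 CPM in GF, 102, 111 and 106 CPM in GF+SCFA and 92.7, 100 and 54.3 CPM in ConvD. The library in which Rps27 was highest, ConvD replicate 3, was the one in which Gm9846 was lowest. Summed, the pair had 121 ± 8.79 CPM in GF, 121 ± 12.1 CPM in GF+SCFA and 116 ± 7.74 CPM in ConvD (SD, n = 3). The coefficient of variation (CV) over 9 libraries was 112% for Rps27 alone and 7.42% for the sum.

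Rps23 (chr13:90922958-90924950) differed from Gm15450, a processed pseudogene named Rps23-ps1 in GENCODE (chr3:37714740-37715164), at 7 of 432 coding bases. Rps23 took 4.63% to 27.2% of the pair's expected counts, again most in ConvD replicate 3. The sum was 132 ± 6.63 CPM in GF, 134 ± 8.22 CPM in GF+SCFA and 130 ± 2.01 CPM in ConvD. Its CV was 4.27%, against 60.8% for the Rps23 row.

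In a fit with the pairs summed, chosen after the values were seen, the log2 fold changes of both pairs lay between -0.07 and 0.02 in the 3 comparisons. Neither had an adjusted p under 0.05 by edgeR's quasi-likelihood test (lowest 0.641).

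**Figure D2:**
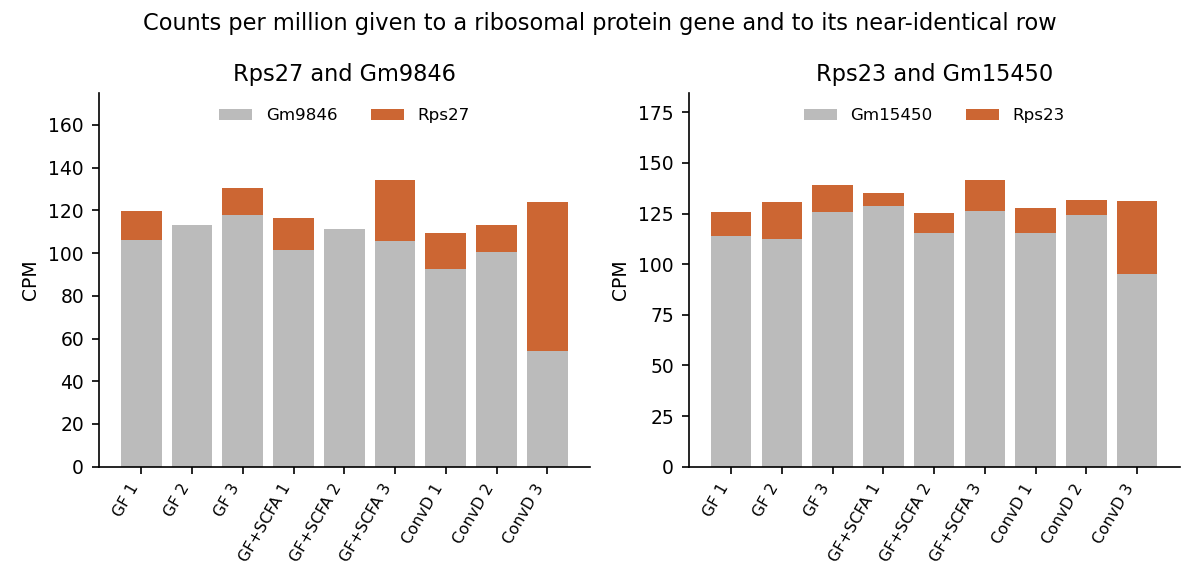
Stacked CPM of each gene (orange) and its near-identical row (grey) in each of the 9 libraries, with the axis starting at 0. The total of each pair is even across libraries, whereas the orange share of Rps27 runs from 0% to 56.3% of the pair's expected counts.

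Across libraries the other genes varied little. The median CV of the tested ribosomal protein genes over the 9 libraries was 5.23%, against 12.9% for all 12037 genes tested, and 75 of the 80 had a CV under 10%. The 12037 genes include many with far lower counts, where counting error is larger. Genes matched for level were not compared, so the 2 medians do not show a trait of the family. Rpl18, a large-subunit protein named after its values were seen, had the lowest CV, at 2.06%, with 122, 122 and 126 CPM in GF. The genes shifted together within groups. In GF+SCFA replicate 3, 74 of the 80 lay above their own mean over the 9 libraries, with a median of 0.08 on the log2 scale. In GF+SCFA replicate 2 only 13 did, with a median of -0.06, and in GF replicate 1 only 14, with a median of -0.05. Over all genes tested the median was 0.001 in GF+SCFA replicate 3, 0.0021 in GF+SCFA replicate 2 and 0.00059 in GF replicate 1. The summed level of the family was 13242, 13507 and 13976 CPM in GF, 13870, 13217 and 14502 CPM in GF+SCFA and 13342, 13832 and 13685 CPM in ConvD. The GF+SCFA range enclosed all GF and ConvD values, so the groups overlapped.

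In ConvD replicate 3 the genes were spread most widely, with an interquartile range of 0.13 against 0.05 in ConvD replicate 1. There Rpl39, a small protein of the peptide exit tunnel, had 91.7 CPM, and 67 to 73.8 CPM in the other 8 libraries. The interquartile range over all tested genes was 0.27 in each of these 2 ConvD libraries.

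**Figure D3:**
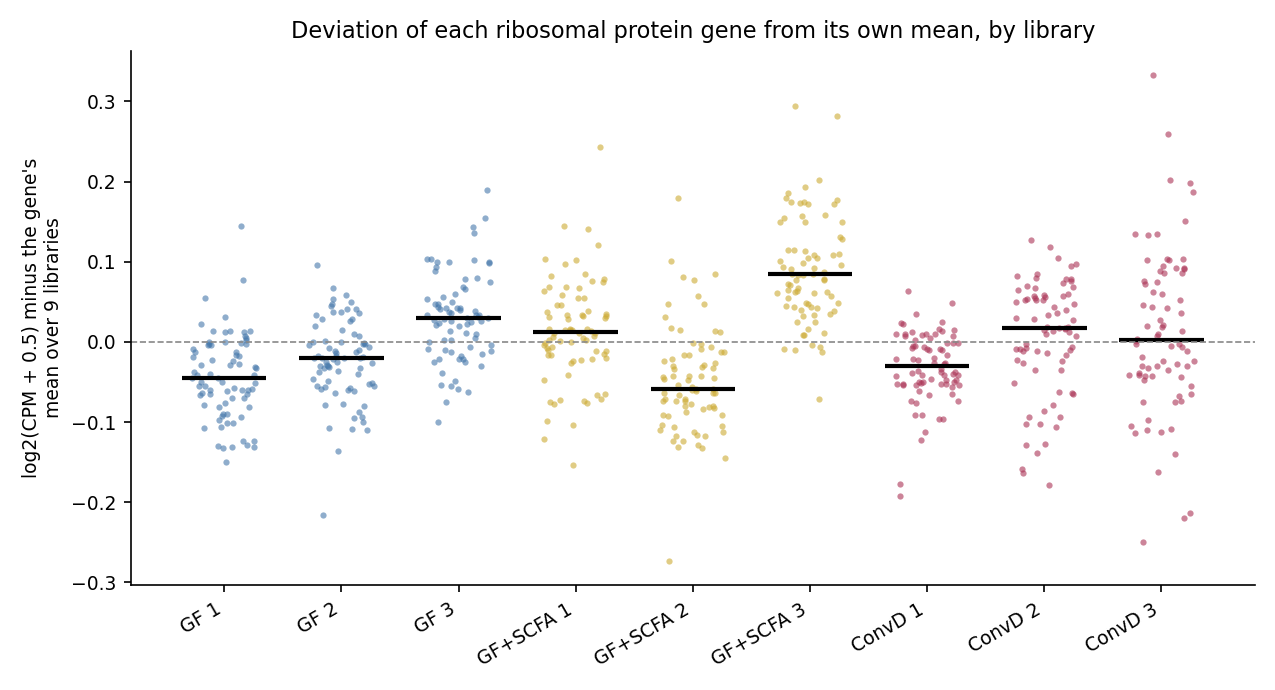
Each point is 1 of 77 ribosomal protein genes (Rps27 and Rps23 are left out of the points for their scale), plotted as log2(CPM + 0.5) minus the gene's mean over 9 libraries, and the black line is the median of all 80. The medians run from -0.06 to 0.08, and both ends belong to the same group, with GF+SCFA replicate 3 highest and GF+SCFA replicate 2 lowest.

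The comparison of ConvD with GF asks what a microbiota changes in the liver. None of the 80 ribosomal protein genes differed at an adjusted p under 0.05 (edgeR's quasi-likelihood test, Benjamini-Hochberg over 12037 genes), and such genes are called below. Of all genes tested, 12.8% were called (5.93% higher and 6.90% lower in ConvD). DESeq2 also called 0 of the 80. At an unadjusted p under 0.05 the count was 0 of 80, against 28.6% of all genes. The median log2 fold change was 0.0094, against 0.0026 for all genes tested, with 0.0054 in the large and 0.015 in the small subunit. The 95% interval of the fold change lay within 1.25-fold either way for 75 of the 80 genes, and within 1.5-fold for 78. Rps27 and Rps23 were the other 2.

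By role, the 4 tested proteins of the acidic stalk had a median log2 fold change of -0.09, with 1 gene above 0 and 3 below. Rplp1 had 285, 289 and 293 CPM in GF and 272, 281 and 241 CPM in ConvD, without overlap (log2 fold change -0.13, SE 0.08, adjusted p = 0.314 by edgeR). Its partner Rplp2, with which it forms dimers on the stalk, had 86.8, 76.5 and 78.6 CPM in GF and 69.3, 73.5 and 76.4 CPM in ConvD (log2 fold change -0.14, SE 0.08, adjusted p = 0.240 by edgeR). The ConvD values of Rplp1 and Rplp2 lay under those of GF, for Rplp2 narrowly (76.4 against 76.5 CPM), and neither gene was called. Rpl12, of the same role, went the other way, with 157, 150 and 165 CPM in GF and 158, 174 and 173 CPM in ConvD.

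The 5S ribonucleoprotein pair, which forms the p53 checkpoint, gave small differences. Rpl11 had 184, 177 and 196 CPM in GF and 186, 201 and 209 CPM in ConvD, with overlap (log2 fold change 0.10, SE 0.07). Rpl5 had 281 ± 20.3 CPM in GF and 286 ± 8.17 CPM in ConvD (SD, n = 3).

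Of the 8 genes for proteins that line the peptide exit tunnel, Rpl35, where factors dock that receive the new chain, had 92.8, 90.6 and 93.5 CPM in GF and 96.1, 97.4 and 106 CPM in ConvD. These groups did not overlap (log2 fold change 0.11, SE 0.07, adjusted p = 0.303 by edgeR). Rpl39 had the largest positive fold change of the 78 genes other than Rps27 and Rps23 (0.16, SE 0.09, adjusted p = 0.256 by edgeR), and its 3 ConvD values (73.8, 69.5 and 91.7 CPM) overlapped those of GF (69.8, 68.8 and 71.4 CPM).

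Among the 9 genes of the messenger RNA channel and the decoding site, Rps28, which lies near the exit of that channel, had the smallest adjusted p of all 80 (0.188 by edgeR). It had 50.9, 52.4 and 49.7 CPM in GF and 47.3, 43.8 and 43.7 CPM in ConvD, without overlap (log2 fold change -0.18, SE 0.09). In all, the 3 values of one group lay wholly above or below those of the other in 8 of the 80 genes, against 31.6% of all genes tested.

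The comparison of GF+SCFA with GF asks what the 3 acids change without bacteria. Again none of the 80 was called, by edgeR or by DESeq2, and 0.0415% of all genes tested were called (0.00831% higher and 0.0332% lower in GF+SCFA), so the comparison had few calls of any kind. At an unadjusted p under 0.05 there were 4 of the 80, against 12.3% of all genes. The median log2 fold change was 0.026, against -0.0062 for all genes tested, and 54 of the 80 were above 0. The intervals of 73 genes lay within 1.25-fold, and those of 78 within 1.5-fold. The 3 values did not overlap in 8 genes, against 17.9% of all genes.

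The 4 genes were Rpl36al, Rps2, Rpl41 and Rpl7l1, and all were higher in GF+SCFA. Rpl36al, the autosomal paralogue of the X-linked Rpl36a, had 115, 115 and 114 CPM in GF and 132, 127 and 131 CPM in GF+SCFA, without overlap (log2 fold change 0.18, SE 0.06, adjusted p = 0.271 by edgeR). Rps2 had 516, 531 and 540.03 CPM in GF and 602, 586 and 619 CPM in GF+SCFA, also without overlap (log2 fold change 0.19, SE 0.07, adjusted p = 0.309 by edgeR). Rpl41, the smallest ribosomal protein, is named after its values were seen. It had 181, 193 and 204 CPM in GF and 212, 212 and 230.1 CPM in GF+SCFA (log2 fold change 0.18, SE 0.07, adjusted p = 0.343 by edgeR). Rpl7l1 had 53.4, 49.5 and 54.9 CPM in GF and 64.5, 61.7 and 54.7 CPM in GF+SCFA, and the groups overlapped (log2 fold change 0.20, SE 0.08, adjusted p = 0.373 by edgeR).

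Short transcripts as a class had positive medians in GF+SCFA against GF. Over all 189 tested genes with rows under 600 bases the median log2 fold change was 0.12, while the 34 ribosomal protein genes among them had 0.03. Between 600 and 1000 bases the medians were 0.09 over 665 genes and 0.03 over 30 ribosomal protein genes. The part of transcript length in the fold changes of single genes was not tested.

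Between ConvD and GF+SCFA, 1 of the 80 was called, Rps2, which was lower in ConvD, while 18.4% of all genes tested were called (9.44% higher and 8.97% lower). The 3 ConvD libraries had 506, 499.7 and 531 CPM and the 3 GF+SCFA libraries 602, 586 and 619 CPM, so the groups did not overlap. The log2 fold change was -0.24 (SE 0.07, 95% interval -0.38 to -0.09, adjusted p = 0.0266 by edgeR). GF values of Rps2 lay within or just above the ConvD range, from 516 to 540.03 CPM. This comparison shares the GF+SCFA libraries with the one before, so the position of Rps2 in both rests on the same 3 libraries. The call was lost without any one of GF+SCFA replicates 1, 2 and 3 or ConvD replicates 1 and 2 (adjusted p from 0.0574 to 0.0931 by edgeR), and with upper-quartile scaling (0.0748) or plain library totals (0.142). The first GENCODE M21 transcript matched to Rps2 shared fewer than 20 31-base words with any other row that had such a transcript. Rows without one could not be compared.

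Unadjusted, 8 of the 80 had a p under 0.05, all lower in ConvD, against 33.1% of all genes. The median log2 fold change was -0.013, against 0.0063 for all genes. Rpl36al had 116, 111 and 118 CPM in ConvD against 132, 127 and 131 CPM in GF+SCFA (log2 fold change -0.18, SE 0.06, adjusted p = 0.0542 by edgeR and 0.0497 by DESeq2). Rpl7l1 had 47.6, 56.4 and 49.4 CPM in ConvD (log2 fold change against GF+SCFA -0.24, SE 0.08, adjusted p = 0.0641 by edgeR). Without GF+SCFA replicate 3 or ConvD replicate 2, Rpl7l1 was called (adjusted p = 0.0449 and 0.0351 by edgeR). The groups did not overlap in 6 of the 80 genes, against 38.0% of all genes. The intervals of 69 genes lay within 1.25-fold and those of 78 within 1.5-fold.

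**Figure D4:**
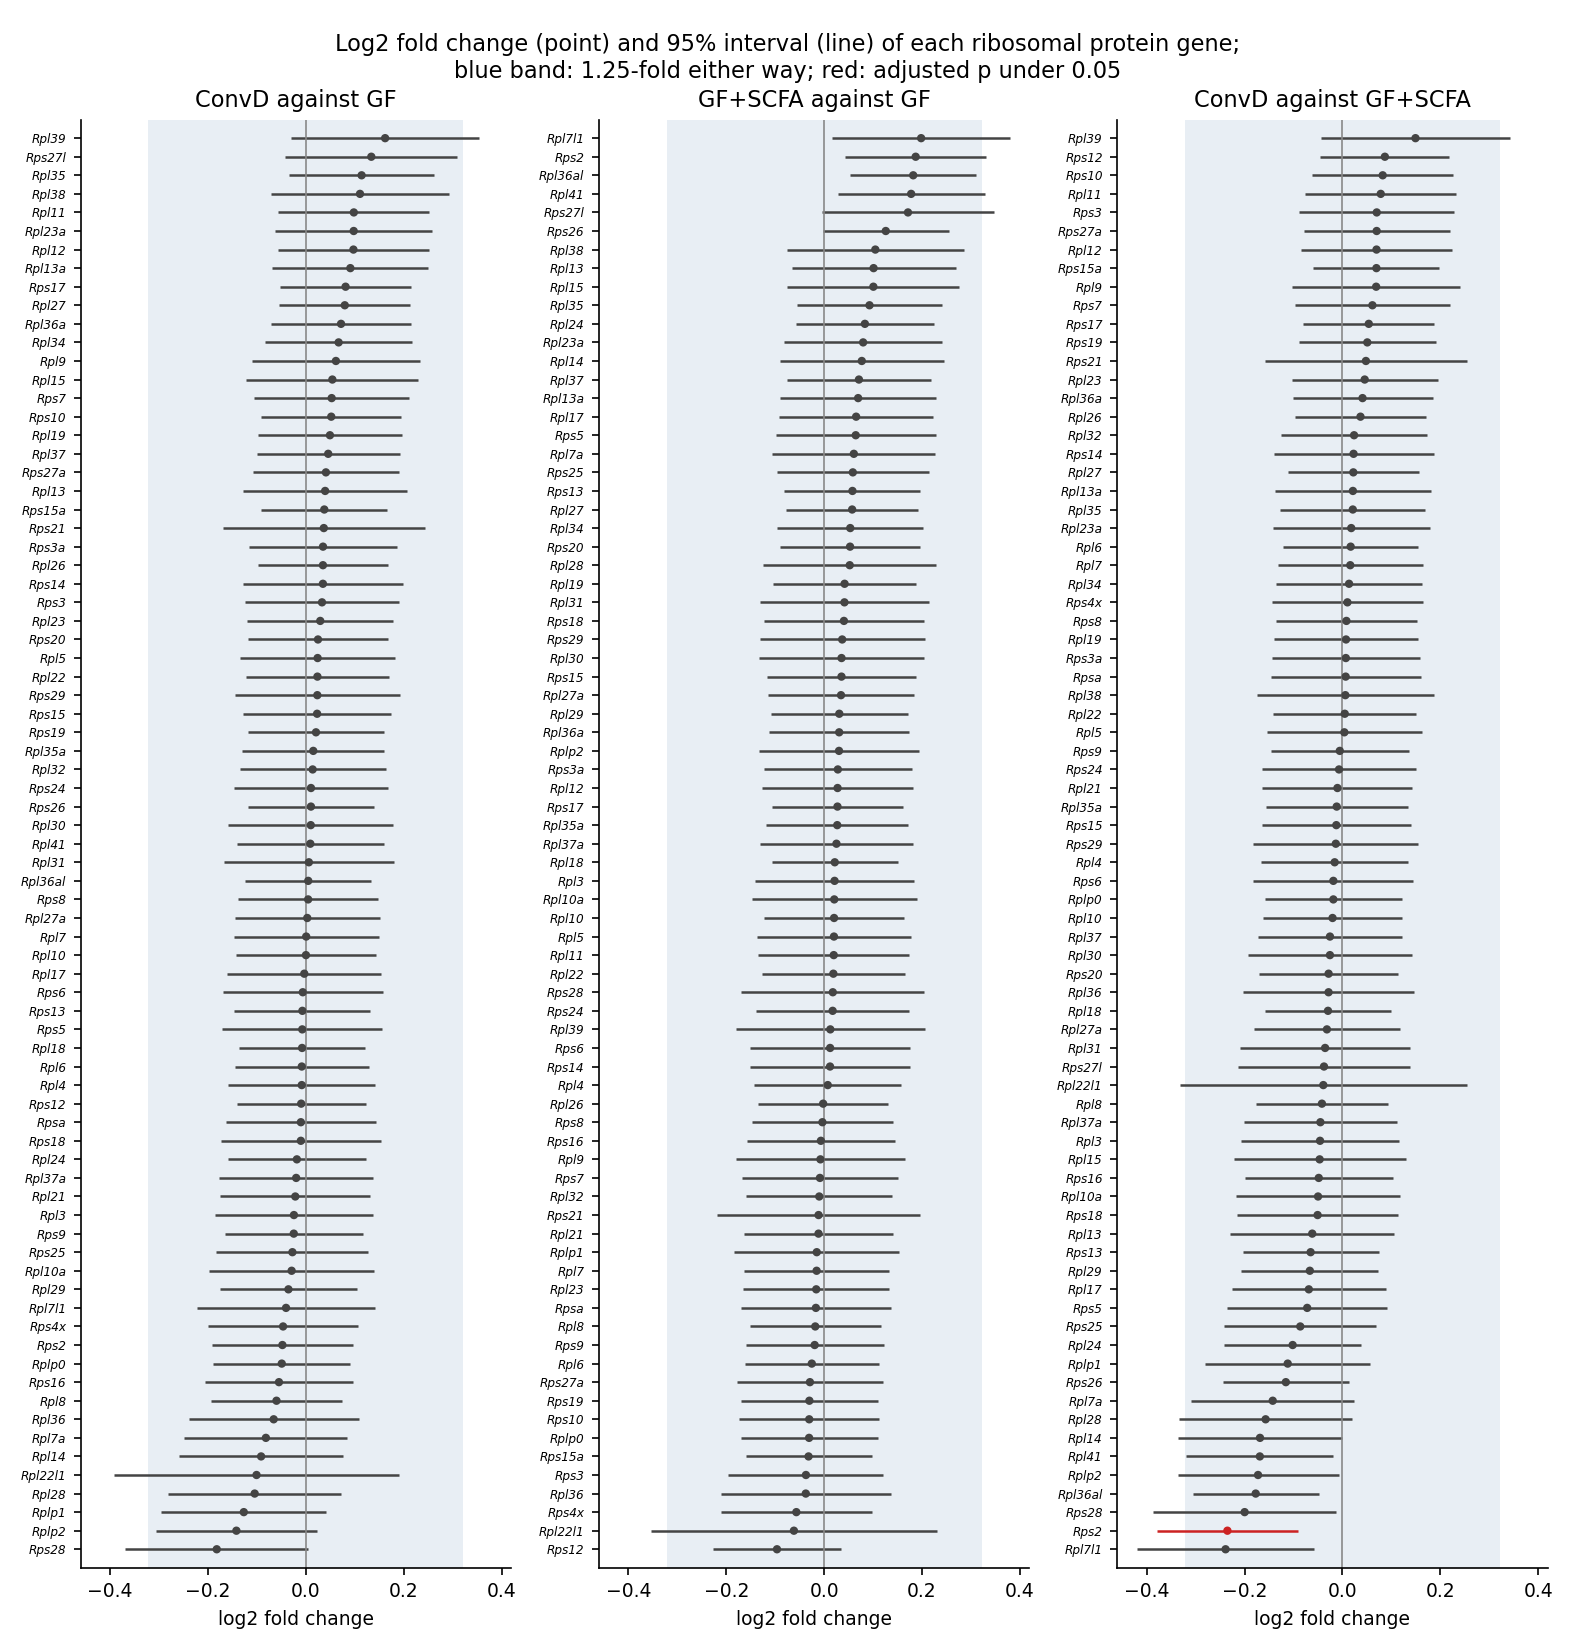
Log2 fold change (point) with its 95% interval (line) for 77 ribosomal protein genes in each comparison, ranked within it, with Rps27 and Rps23 left out of the plot for their scale. The blue band marks 1.25-fold either way and contains most intervals, and Rps2 in the comparison of ConvD with GF+SCFA is the 1 gene drawn in red (adjusted p under 0.05).

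**Figure D5:**
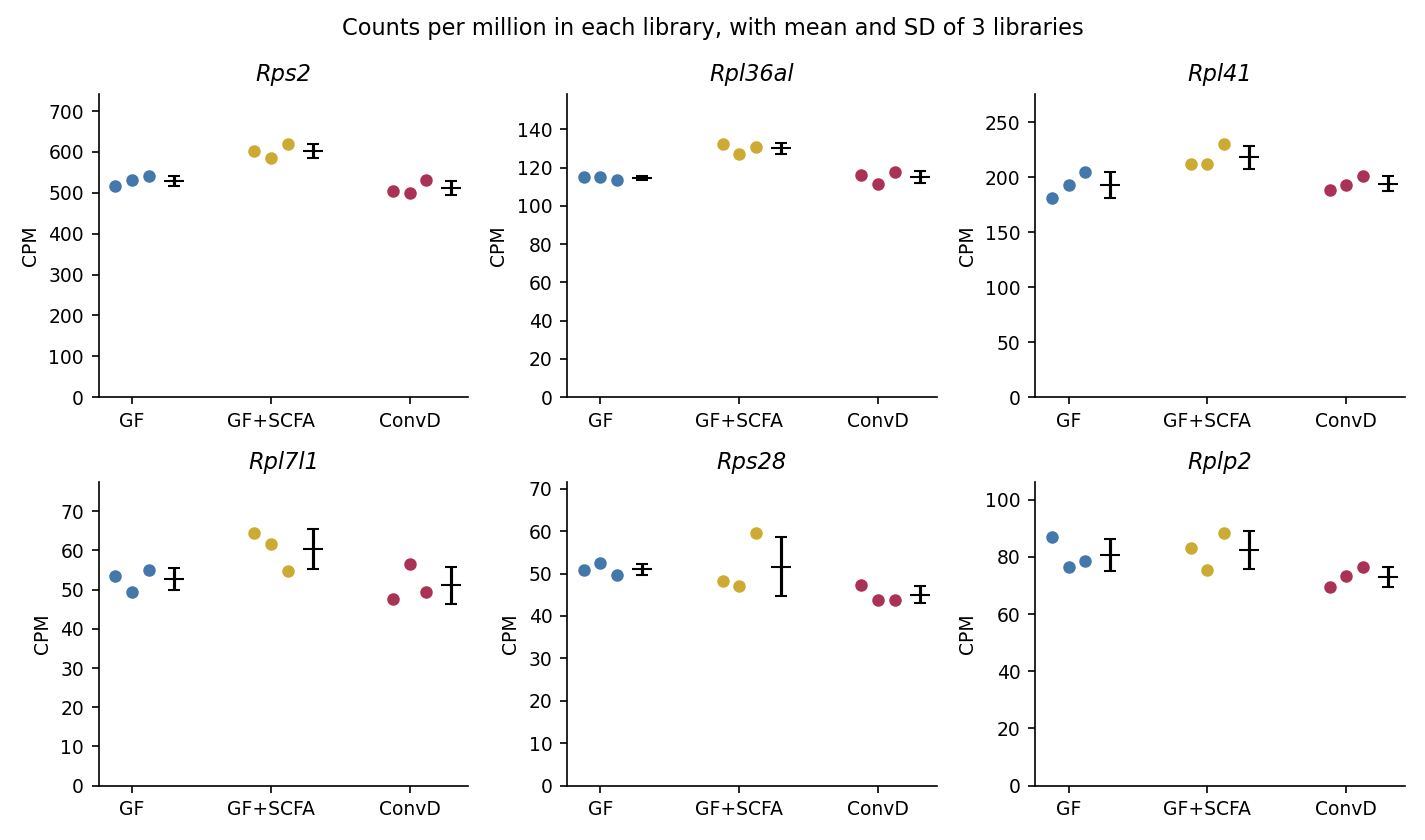
CPM of 6 genes in each of the 9 libraries (points), with the mean and SD of 3 libraries beside them and axes starting at 0. Rps2, Rpl36al and Rpl41 sit higher in all 3 GF+SCFA libraries than in any GF or ConvD library, and Rps28 and Rplp2 sit lower in ConvD than in GF.

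Several ribosomal protein genes have paralogues, and the liver used some of them. As a share of the TPM of the pair, Rpl22l1 held 62.4% ± 1.07 in GF, 60.8% ± 4.48 in GF+SCFA and 60.4% ± 1.17 in ConvD beside Rpl22, an RNA-binding protein that is not needed for the ribosome to work (SD, n = 3). Rpl36al held 60.1% ± 1.18 in GF, 62.6% ± 1.45 in GF+SCFA and 59% ± 1.15 in ConvD beside Rpl36a. Rps27l, a p53-induced paralogue, held 24.9% ± 0.56 in GF, 27.4% ± 2.03 in GF+SCFA and 27.6% ± 1.28 in ConvD when set beside Rps27 and Gm9846 together. Rpl7l1 held 5.72% ± 0.22, 6.6% ± 0.71 and 5.57% ± 0.37 of the pair with Rpl7. Row lengths enter these shares: Rpl22l1 has 477 bases and Rpl22 2040, while Rpl7l1 has 2606 and Rpl7 934. In CPM, Rpl22 was the higher of its pair, with 82.7, 76 and 84.8 CPM in GF against 27.5, 24.4 and 29.8 CPM for Rpl22l1. Shares of Rpl22l1 overlapped between groups within their SD, and none of these 4 paralogues was called in any comparison by edgeR with all 9 libraries. Rpl7l1 was called without single libraries, as given above.

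The tissue-restricted paralogues were at or near 0. Rpl10l, which stands in for Rpl10 in male germ cells, was listed at 0 in all 9 libraries, where 3 counts would equal 0.139 to 0.165 CPM. Rpl39l, another gene of the germ line, had 1 count at most in any library, and Rpl3l, a paralogue of muscle, had 2 at most.

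Other parts of the ribosome's supply line were read from lists of genes for comparison. Of 25 tested TOP messenger RNAs that encode no ribosomal protein, 1 was called lower in ConvD against GF (6.90% of all genes tested were), and 0 were called in GF+SCFA against GF or in ConvD against GF+SCFA. The 1 gene was Ipo5, an importin, at 65.7, 71.1 and 64.7 CPM in GF and 55.2, 58.8 and 53.5 CPM in ConvD (log2 fold change -0.27, SE 0.07, adjusted p = 0.0211 by edgeR). Its call was lost without GF replicate 2, ConvD replicate 1 or ConvD replicate 3, with upper-quartile factors and with plain library totals (adjusted p from 0.0532 to 0.0971). With either of these scalings 1 gene of the list was called higher in ConvD against GF+SCFA. The list's medians were -0.06, 0.0057 and -0.03 on the log2 scale. Eef2, the elongation factor that moves the ribosome along, had 1512, 1634 and 1470 CPM in GF and 1393, 1341 and 1240 CPM in ConvD, without overlap (log2 fold change -0.22, SE 0.08, adjusted p = 0.0861 by edgeR and 0.0320 by DESeq2). Its GF+SCFA values, from 1324 to 1382 CPM, also lay below those of GF. With plain library totals the list's median in ConvD against GF changed sign to 0.02, on a scale whose median over all genes was 0.08.

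The list on mTORC1 control of TOP translation had 6 of its 22 genes lower in ConvD than in GF, and none higher, where 6.90% of all genes tested were lower and 5.93% higher. In ConvD against GF+SCFA 4 were lower and 1 higher, and in GF+SCFA against GF none was called. Eif4ebp3, whose product binds and blocks the cap-binding factor eIF4E, fell in ConvD against GF: its level was 29.4 ± 4.08 CPM in ConvD livers and 91.7 ± 13.7 CPM in GF livers (SD, n = 3), and no library overlapped. The log2 fold change was -1.64 (SE 0.19, adjusted p = 0.00180 by edgeR), and it was called with each library left out. Ddit4, an inhibitor of mTORC1, had 19, 14.9 and 20.9 CPM in GF and 5.63, 5.27 and 4.62 CPM in ConvD (log2 fold change -1.82, SE 0.36, adjusted p = 0.0222 by edgeR). That call was lost without GF replicate 1 or 3 or any one ConvD replicate (adjusted p from 0.0615 to 0.0832). The list holds activators as well as inhibitors, and 4 of its 22 genes had a log2 fold change above 0 in ConvD against GF. Pdcd4 was among these 4, uncalled, with 66.4, 69.6 and 46.1 CPM in GF and 92.4, 81.5 and 76.9 CPM in ConvD. With upper-quartile factors or plain library totals the list counted 4 lower and 1 higher in ConvD against GF, and with DESeq2 7 lower and 1 higher. Without single libraries the lower count ran from 2 to 6, with 2 without ConvD replicate 2 and 3 without ConvD replicate 1 or GF replicate 2. Against GF+SCFA it fell to 2 without GF+SCFA replicate 3.

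Ribosome biogenesis factors, which make and process ribosomal RNA and assemble the subunits, had 2 of 61 genes lower and 1 higher in ConvD against GF, where 6.90% of all genes tested were lower and 5.93% higher. Without GF replicate 1 or 2 the lower count was 1. In ConvD against GF+SCFA, 8 were lower and 1 higher, where 8.97% of all genes were lower and 9.44% higher, and none was called in GF+SCFA against GF. Rrp12, a factor for export of both subunits, had 7.93, 7.27 and 9.15 CPM in GF, 9.41, 10.2 and 9 CPM in GF+SCFA and 5.24, 6.3 and 3.61 CPM in ConvD. Its log2 fold change was -0.91 against GF+SCFA (SE 0.17, adjusted p = 0.00236) and -0.68 against GF (SE 0.17, adjusted p = 0.0183, or 0.0547 without GF replicate 3), by edgeR. With plain library totals 4 of the 61 were lower and 3 higher in ConvD against GF+SCFA, and without single libraries the count of lower genes ran from 4 to 16. It was 16 without ConvD replicate 2, 4 without ConvD replicate 1 or 3 or GF+SCFA replicate 1 or 3, and 5 without GF+SCFA replicate 2.

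Of 15 chaperones and importers that escort new ribosomal proteins to the nucleus, 2 were lower in ConvD against GF, where 6.90% of all genes were. One was Ipo5, counted above, which was not called without GF replicate 2 or ConvD replicate 1 or 3 or with the other scalings, so that 1 was left. The other was Ipo7, also an importin, at 81.4, 84 and 88.7 CPM in GF and 65.6, 64.4 and 66 CPM in ConvD (log2 fold change -0.38, SE 0.07, adjusted p = 0.00298 by edgeR). Of 14 genes for the surveillance of stalled ribosomes, 0 were called in ConvD against GF and 3 were lower in ConvD than in GF+SCFA, where 8.97% of all genes were. That count was 1 with plain library totals and ran from 1 (without GF+SCFA replicate 3) to 4 without single libraries.

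Mitochondrial ribosomal proteins, which build the separate ribosome of that organelle, gave 1 higher and 0 lower of 76 in ConvD against GF and 0 higher and 7 lower against GF+SCFA. The first call was lost without any 1 library other than GF+SCFA replicate 2. The second count was close to the 8.97% of all genes called lower. With plain library totals it was 0 lower and 1 higher, and it was 0, 1, 2, 4 and 1 without ConvD replicates 1 and 2 and GF+SCFA replicates 1, 2 and 3, each left out alone. Their median in GF+SCFA against GF was 0.12 with 0 genes called, where cytosolic ribosomal proteins had 0.026. Subunits of oxidative phosphorylation gave 0 higher and 1 lower of 72 in ConvD against GF and 0 higher and 20 lower against GF+SCFA, where 8.97% of all genes were lower. The 20 became 8 with upper-quartile factors and 2 with plain library totals. They became 11, 4, 10, 12 and 3 without ConvD replicates 1 and 2 and GF+SCFA replicates 1, 2 and 3, each left out alone, and 24 without ConvD replicate 3. Proteasome subunits gave 6 higher and 1 lower of 39 in ConvD against GF, where 5.93% of all genes were higher and 6.90% lower. With upper-quartile factors or plain library totals 11 were higher and 0 lower, and without single libraries 2 to 6 were higher (2 without GF replicate 1, 3 without ConvD replicate 1). Psmb9, a subunit of the immunoproteasome, was 11.1 ± 0.81 CPM in GF and rose in ConvD, where it was 18.7 ± 2.47 CPM (SD, n = 3). Its log2 fold change was 0.75, with an SE of 0.11 and an adjusted p of 0.00109 by edgeR.

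Markers of some other cells were called in ConvD against GF, where no ribosomal protein gene was. Of all genes tested, 5.93% were called higher and 6.90% lower in that comparison. The 10 markers of monocytes and neutrophils summed to 4.29 to 6.85 CPM in GF, 5.16 to 5.73 CPM in GF+SCFA and 17.4 to 25.7 CPM in ConvD. Of the 8 tested, edgeR called 5 higher in ConvD than in GF, and DESeq2 called 3. Several were near the floor: S100a8 had 0.16 to 0.28 CPM in GF, where 3 counts would equal 0.139 to 0.160 CPM, and 1.97 to 2.59 CPM in ConvD. Lcn2 had 1.3 to 3.1 CPM in GF and 5.74 to 8.35 CPM in ConvD. Kupffer cell and macrophage markers summed to 388 to 465 CPM in GF, 414 to 512 CPM in GF+SCFA and 541 to 785 CPM in ConvD, with 8 of 12 higher against GF. Without single libraries this count ran from 4 (without ConvD replicate 2 or 3) and 5 (without GF replicate 1 or 2) to 11 (without ConvD replicate 1). Erythroid markers summed to 296 to 1003 CPM in ConvD, against 264 to 367 CPM in GF and 225 to 319 CPM in GF+SCFA. Hba-a1 alone had 146, 717 and 363 CPM in ConvD and 186, 124 and 130 CPM in GF. Of the 5 tested erythroid markers, 0 were called in ConvD against GF by edgeR, and 2 were called higher by DESeq2. Of 10 hepatocyte markers, 3 were lower and 1 higher in ConvD against GF. Of 7 tested T and NK cell markers none was called in any comparison by edgeR. The 10 such markers found, tested or not, summed to 5.39 to 6.43 CPM in GF, 5.91 to 8.29 CPM in GF+SCFA and 6.35 to 8.13 CPM in ConvD. Cholangiocyte markers summed to 41.8 to 47.8 CPM in GF, 24.8 to 29.3 CPM in GF+SCFA and 40.5 to 62.8 CPM in ConvD. Most of each sum was Spp1, with 42.6, 43 and 36.9 CPM in GF, 26, 24.2 and 21.9 CPM in GF+SCFA and 57.1, 51.2 and 36.8 CPM in ConvD. Krt19 had 1.41, 1.34 and 1.55 CPM in GF and 0.97, 1.07 and 0.58 CPM in ConvD. Of the 5 tested cholangiocyte markers, 3 had a log2 fold change above 0 in ConvD against GF, and 0 were called by edgeR. In GF+SCFA against GF edgeR also called 0, while DESeq2 called Spp1 lower (adjusted p = 0.000515). In ConvD against GF+SCFA edgeR called 1 of the 5 higher, Spp1. Stellate cell markers summed to 269.6 to 299 CPM in GF, 227 to 262 CPM in GF+SCFA and 289 to 296 CPM in ConvD. Of the 8 tested, 1 was called lower in GF+SCFA against GF, where 0.0332% of all genes were, and 0 to 2 without single libraries. In ConvD against GF+SCFA 4 were called higher, where 9.44% of all genes were, and 2 to 4 without single libraries. The part of these cells in the values of the ribosomal protein genes was not tested.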

How the data were processed

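Polyadenylated RNA of 9 livers (3 groups of 3) was extracted on Qiagen columns and made into stranded TruSeq libraries, per the labels' protocols. The authors mapped reads with Bowtie2 and RSEM 1.2.23 on mm9, per the submitters' processing notes; whether counting used strand is not given in the sources used here, and antisense reads may be shared. The deposited values used were expected counts, not normalized, and TPM, scaled by the authors for length and depth, per the file headers. RSEM divides reads among similar rows: 94.8% of the ribosomal protein rows' counts above 0 were not whole (tolerance 0.005).

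Counts were rounded and filtered with filterByExpr (minimum count 10), leaving 12037 genes, and tested in R 4.3.3 by edgeR 4.0.16, which uses limma 3.58.1: TMM factors (0.935 to 1.06), 1 model of 3 groups and 9 libraries with 6 residual degrees of freedom, robust quasi-likelihood tests, Benjamini-Hochberg adjustment, threshold 0.05. DESeq2 1.42.0 was an alternative, with other scalings, no filter, 2-group fits, a replicate block, and each library left out. CPM are scaled by TMM. SE is the log2 fold change over the square root of F. Intervals are 95%. The code was tested on simulated data. Bounds from 3 counts cover counting error only.

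The genes, lists and tests were chosen with earlier results of these data known. Named genes were, per comparison, called members and the 4 largest changes with a mean count of at least 50, the 3 highest and 3 lowest TPM, the paralogues, up to 2 genes per role, and up to 3 per other list by adjusted p in ConvD against GF, plus Eif4ebp3 and Ddit4. Results of some genes are not reported here, and the figures leave them out.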

Additional observations from a re-analysis of the deposited data

How the results depend on the processing

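The count of ribosomal protein genes called stayed at 0 in ConvD against GF and in GF+SCFA against GF under every alternative tried. In ConvD against GF+SCFA it was 0 with upper-quartile factors, 0 with library totals and 2 with DESeq2 (Rps2 and Rpl36al). It ran from 0 to 1 over the fits that left out 1 library, and Rps2 was not the gene called without GF+SCFA replicate 3 or ConvD replicate 2, where it was Rpl7l1. The median log2 fold change in ConvD against GF was 0.070 with upper-quartile factors and 0.087 with library totals, where the medians of all genes were 0.06 and 0.08. In ConvD against GF+SCFA it was 0.042 with upper-quartile factors and 0.059 with library totals, where all genes had 0.061 and 0.078, and the cause was not tested. Without single libraries the medians ran from -0.01 to 0.03 in ConvD against GF and from -0.01 to 0.06 in GF+SCFA against GF, the last negative without GF+SCFA replicate 3. In ConvD against GF+SCFA they ran from -0.040 to 0.032, positive without GF+SCFA replicate 3 and without ConvD replicate 1. With the near-identical rows summed, an alternative added after seeing the data, the counts were 0, 0 and 1. Of 864 alternative values for 16 named ribosomal protein genes, 854 stayed on their side of the threshold, 7 lost a call and 3 gained one. The sign differed in some setting for 24 of the 48 gene results, all uncalled, so no direction is read from them. The replicate numbers did not pair the libraries (correlations of same-numbered libraries from -0.066 to 0.139), and a fit with the replicate block gave 0, 0 and 1 called genes.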
